A study of Mus musculus with 24 samples.

Results

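The reads of an inducible ligand-trap transgene were followed through the counts of 2 mouse genes, Fgfr2 and Ighg1, out of 15736 genes in the deposited table. Both genes were selected on their own counts in these libraries, which were known to differ between the groups. Their differences between groups are therefore described here and not tested. Ighg1 enters tests only as the level set against Etv5 and Spry1. The tissue was otocyst epithelium, the wall of the vesicle from which the inner ear forms, dissected from mouse embryos and pooled by genotype within each pregnant female. Control pools (con) had the genotype Rosa26rtTA/+, which supplies the doxycycline-dependent activator rtTA. Experimental pools (R2b) had the genotype Rosa26rtTA/+;Tg(tetO-s(dn)Fgfr2b)/+, which adds a tetO-driven, secreted, dominant-negative form of FGFR2b. Both groups carried rtTA and all females received doxycycline, 1.5 mg/kg by injection and then chow with 200 mg/kg. Doxycycline was given over one of 3 spans, the start and length of which name the groups: E9.75+12h, called the short exposure here, E9.25+24h, the early exposure, and E10.25+24h, the late exposure (E gives the embryonic day at the start, h the hours of exposure). A litter gave 1 con and 1 R2b pool. The short exposure is represented by 3 litters and each of the others by 4, which makes 22 libraries with a column that matches a sample title. The labels describe the 4 females per condition as biological replicates. The dissection gave pools, so differences between embryos of a litter were not measured.

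Fibroblast growth factors (FGFs) signal through tyrosine kinase receptors, and the FGFR2b splice form, typical of epithelia, binds FGF3 and FGF10 among others. These ligands take part in otic induction and in the shaping of the otocyst. Transgenes of this kind encode the ligand-binding ectodomain of FGFR2b joined to the hinge and constant domains of an immunoglobulin heavy chain. Such a product lacks the kinase, is secreted, and binds ligand away from the receptors on the cell. The labels name a secreted, dominant-negative Fgfr2b and no immunoglobulin part, and no transgene sequence was used here. Reading Ighg1 counts as transgene reads rests on that background. Etv5, an ETS transcription factor, and Spry1, a feedback inhibitor of receptor tyrosine kinase signalling, are both switched on by FGF signalling and serve as readouts of it.

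A transgene of this design can place reads in Fgfr2 and in Ighg1, while endogenous transcription of Fgfr2 adds to the former. Fgfr2 (ENSMUSG00000030849, protein-coding) lies on the minus strand of chromosome 7, GRCm38, from 130162451 to 133123350. One of its 27 annotated transcripts is a read-through. Without it the gene ends at 130266263. The only gene with which Fgfr2 shares exon bases is Ctbp2, through that read-through. Of the 50-base words of its exons, 2.47% also occur in another gene, in each case Ctbp2. Ighg1 (ENSMUSG00000076614), a gene for an immunoglobulin heavy-chain constant region, lies on the minus strand of chromosome 12 from 113325240 to 113330523. It overlaps no other gene, and 0.393% of its 50-base words also occur in Ighg2b or Ighg3. Reads in such words could have been counted in either gene.

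One exon of the receptor part and one of the immunoglobulin part are shown, 5′ to 3′ on the minus strand. Both were read from the GRCm38 reference (GENCODE M21). The IIIb exon of Fgfr2 (chr7:130199758-130199905, coding exon, 148 bases), which gives FGFR2b its name and its ligand preference, is in 10 of 17 protein-coding transcripts. The hinge exon of Ighg1 (chr12:113329844-113329882, coding exon, 39 bases) encodes the flexible link ahead of the outer constant domains. Capitals mark in-frame cysteine codons, 1 in the IIIb exon and 4 in the hinge exon.
Fgfr2 IIIb exon: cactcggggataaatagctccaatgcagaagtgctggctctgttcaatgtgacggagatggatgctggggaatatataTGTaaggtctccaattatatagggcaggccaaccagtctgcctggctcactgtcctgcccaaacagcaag
Ighg1 hinge exon: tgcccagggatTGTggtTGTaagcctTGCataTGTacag
The deposited counts are sums per gene, so they do not tell which exon a read came from.

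The libraries held 18.7 to 28.2 M counts each. Levels are given as CPM, counts per M counts of the library after trimmed-mean (TMM) scaling over all 22 libraries. The share of mitochondrial counts was 4.00% to 6.69% in the short exposure, 1.53% to 1.70% in the early exposure and 1.88% to 2.85% in the late exposure. Titles of libraries of different exposures begin with different numbers, which the labels do not explain, and differences in level between exposures cannot be told apart from whatever these numbers stand for. All 12 markers of otic epithelium were in the table, with a summed level of 2284 to 7768 CPM per library. Blood markers (9 of 10 in the table) summed to 9.63 to 4943 CPM, mesenchyme markers (10 of 10) to 48.6 to 1321 CPM, endothelium markers (8 of 8) to 2.77 to 239.8 CPM and hindbrain markers (5 of 9) to 8.30 to 50.5 CPM.

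Late-exposure transgene reads went against the labels in litter 1. The library labelled con of that litter had 15754 Ighg1 counts and the library labelled R2b had 1504. The library labelled con of litter 3 also had 5106 Ighg1 counts. All libraries were kept under their labels, and results at this exposure are given with and without litter 1.

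Ighg1 was nearly silent in con at the other exposures and abundant in R2b. The short-exposure con libraries of litters 1 to 3 had 19, 24 and 36 Ighg1 counts, and the R2b libraries had 34470, 76096 and 19414. The early-exposure con libraries of litters 1 to 4 had 1, 5, 1 and 3 counts, and the R2b libraries had 26082, 27916, 42515 and 30615. The groups lay far apart in both exposures. The late-exposure libraries labelled con had 15754, 28, 5106 and 16 counts, and those labelled R2b had 1504, 25248, 23658 and 19155. Here the labels overlapped, with 2 of 4 libraries labelled con above the lowest library labelled R2b.

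The background in con, set against the R2b pool of the same litter, was a small part of the induced level. In the short exposure the Ighg1 level of con was 0.0662% of that of R2b in litter 1, 0.0447% in litter 2 and 0.194% in litter 3. The 95% exact intervals ran from 0.0286% to 0.268% over these litters and cover counting error only, since reads carry no molecular identifiers. The early-exposure shares were 0.00391%, 0.0183%, 0.0028% and 0.00962%, with exact intervals from 7.08e-05% to 0.0428%. They rest on 1 to 5 con counts. The late-exposure shares were 0.123% in litter 2 and 0.0895% in litter 4, against 24.6% in litter 3 and 1242% in litter 1.

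In descending order of mean, Ighg1 stood at 1861 ± 1062 CPM (SD, n = 3) in R2b in the short exposure, 1487 ± 292 CPM (SD, n = 4) in R2b in the early exposure and 713 ± 466 CPM (SD, n = 4) in the libraries labelled R2b in the late exposure. The libraries labelled con in the late exposure followed with 221 ± 320 CPM (SD, n = 4). Con stood at 1.45 ± 0.502 CPM (SD, n = 3) in the short exposure and at 0.123 ± 0.094 CPM (SD, n = 4) in the early exposure. The R2b ranges of the short and early exposures overlapped, at 1025 to 3056 and 1230 to 1902 CPM. The highest library labelled R2b in the late exposure, with 1155 CPM, lay below the lowest R2b library in the early exposure. The con ranges of the short and early exposures did not overlap, since the highest in the early exposure was 0.248 CPM and the lowest in the short exposure was 0.994 CPM. Within R2b the highest level was 2.98 times the lowest in the short exposure and 1.55 times in the early exposure. Among the libraries labelled R2b in the late exposure it was 21.1 times, and their range of 54.7 to 1155 CPM overlapped that of the libraries labelled con, 0.736 to 679 CPM.

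**Figure D1:**
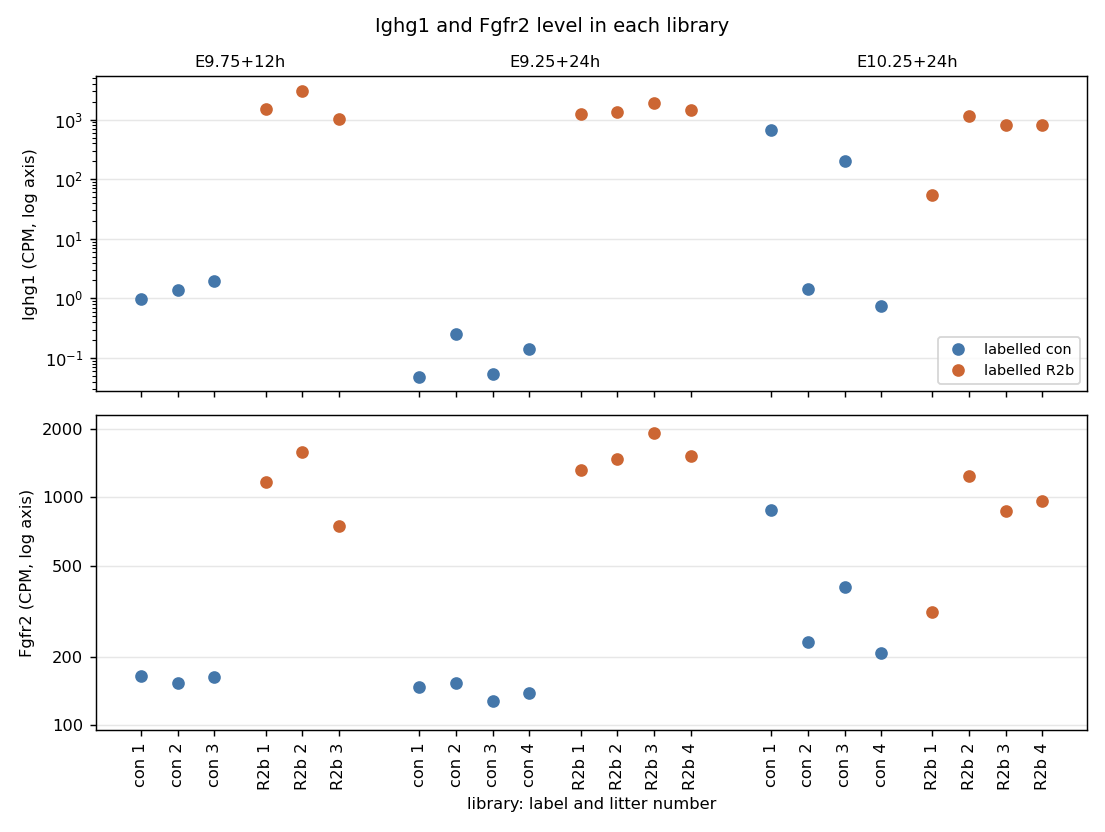
Level of Ighg1 (top) and Fgfr2 (bottom) in CPM on log axes, 1 point per library, blue for libraries labelled con and orange for those labelled R2b, numbered by litter. The late-exposure con point of litter 1 (679 CPM Ighg1) sits above the R2b point of that litter (54.7 CPM).

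Fgfr2 had a level of its own in con and a higher one in R2b. Con of litters 1 to 3 of the short exposure was at 165, 153 and 162 CPM of Fgfr2, and R2b at 1164, 1592 and 747 CPM. Con of litters 1 to 4 of the early exposure was at 147, 154, 127 and 139 CPM, and R2b at 1325, 1481, 1927 and 1517 CPM. Each R2b library was thus 4.61 to 15.2 times its litter's con library in these exposures. Under the late exposure the libraries labelled con were at 879, 231, 404 and 208 CPM and those labelled R2b at 313, 1239, 872 and 965 CPM. The con library of litter 1 was above 2 of 4 libraries labelled R2b, and the R2b library of litter 1 was below 2 of 4 libraries labelled con. The con mean was 159.7 ± 6.31 CPM (SD, n = 3) in the short exposure, 142 ± 11.4 CPM (SD, n = 4) in the early exposure and 430.4 ± 312 CPM (SD, n = 4) in the late exposure. Together the 2 genes took 0.178% to 0.449% of all counts in R2b in the short exposure and 0.258% to 0.380% in the early exposure, against 0.0124% to 0.0156% in con of both exposures.

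The reads gained in Fgfr2 were set against the reads in Ighg1. For each R2b library the mean con level of Fgfr2 was taken off and the remainder divided by the Ighg1 level, which gives a ratio of reads with no correction for length. This takes endogenous Fgfr2 to be the same in R2b as in con. Counts per gene cannot show that, and a change of endogenous Fgfr2 would enter the ratio and the slopes below. Under the early exposure this was 0.962, 0.989, 0.939 and 0.941 in litters 1 to 4, or 0.958 ± 0.023 (SD, n = 4), with little spread between litters. Under the short exposure it was 0.669, 0.469 and 0.573 in litters 1 to 3, or 0.570 ± 0.100 (SD, n = 3), below every litter of the early exposure. The mitochondrial share, given above, was also higher in every library of the short exposure than in any of the early exposure, and its part in the ratio was not tested. The leading number of the titles cannot be told apart from the exposure here either.

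Under the late exposure the con mean itself holds transgene reads, so that ratio is lowered. It was -2.14 in the library labelled R2b of litter 1 and 0.700, 0.541 and 0.649 in litters 2 to 4, and its mean of -0.06 ± 1.39 (SD, n = 4) describes no library. Without litter 1 the mean was 0.795 ± 0.061 (SD, n = 3). The con library of litter 3, with 5106 Ighg1 counts and 404 CPM of Fgfr2, stays in that con mean, so this ratio is still lowered. A least-squares line of Fgfr2 CPM on Ighg1 CPM does not use the labels. Over all 8 libraries of this exposure its slope was 0.866 Fgfr2 reads per Ighg1 read and its intercept 235 CPM, and without litter 1 they were 0.869 and 219 CPM. The library labelled con of litter 1 lay 56.0 CPM above the line and that of litter 3 lay -4.85 CPM from it. The largest distance was that of the library labelled R2b of litter 3, at -69.8 CPM. Fgfr2 above the intercept, per Ighg1 read, was 0.948 and 0.842 in the libraries labelled con of litters 1 and 3. It was 0.869, 0.780 and 0.887 in the libraries labelled R2b of litters 2 to 4, but 1.44 in that of litter 1. The libraries labelled con of litters 2 and 4 lay below the intercept and gave -3.03 and -36.65. They had only 1.42 and 0.736 CPM of Ighg1 to divide by. All 8 libraries entered the line, so these values describe it and do not test it. The slope was 0.951 with an intercept of 145 CPM in the early exposure. In the short exposure it was 0.493 with an intercept of 204 CPM, which is above all 3 con libraries of that exposure. Without litter 2 that slope was 0.644 and the intercept 152 CPM.

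**Figure D2:**
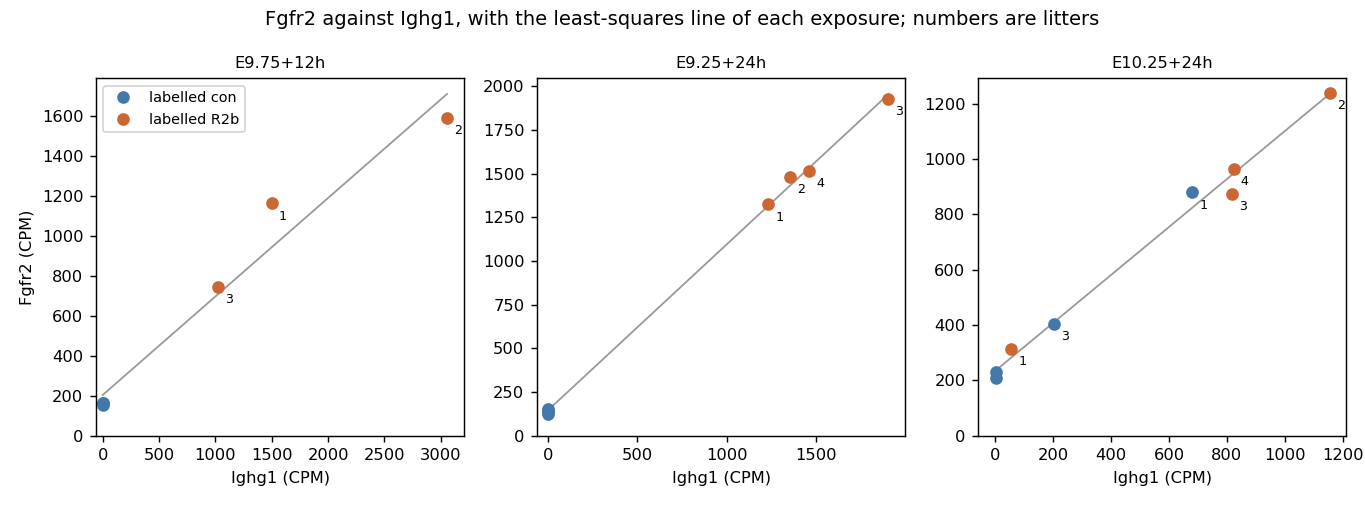
Fgfr2 level against Ighg1 level, both in CPM on linear axes, 1 panel per exposure, 1 point per library (blue labelled con, orange labelled R2b, numbered by litter where Ighg1 was over 10 CPM) and the least-squares line over all libraries of the exposure. The points lie close to a line of slope 0.951 in the early exposure and 0.866 in the late exposure, and R2b of litter 1 lies 219 CPM above the line in the short exposure.

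Other genes of the immunoglobulin and B cell set stayed at low counts in all libraries, also where Ighg1 had many. Of 16 such markers 3 were in the table, Ighm, Cd79b and Ptprc. They encode an IgM heavy chain, a B cell receptor subunit and a leukocyte phosphatase. The lowest total count of a gene over the columns used was 100, so markers with fewer reads may be missing from the table. None of them exceeded 53 counts in any library. In con of the short exposure, where Ighg1 had 19 to 36 counts, Ighm had 0 to 16, Cd79b 4 to 20 and Ptprc 0 to 13 counts. In R2b in the short exposure they had 1 to 5, 10 to 24 and 1 to 7 counts. The summed level of the 3 was 0.314 to 2.15 CPM in con and 0.871 to 1.37 CPM in R2b at that exposure, 0.479 to 3.28 and 0.582 to 3.43 CPM in the early exposure, and 0.644 to 2.80 and 1.71 to 2.38 CPM in the late exposure. In con of the early exposure this sum lay above Ighg1, which was at 0.0481 to 0.248 CPM. The source of the few Ighg1 reads in con was not tested.

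Etv5 and Spry1 are no part of the transgene, but their fall was known when they were chosen, so the tests below are not independent evidence of it. In the short exposure Etv5 was at 99.4, 96.0 and 102 CPM in con of litters 1 to 3 and at 12.0, 12.7 and 32.8 CPM in R2b. It fell by 2.36 on the log2 scale (SE 0.31, edgeR FDR 8.86e-04), lower in 3 of 3 litters. Of 14882 genes tested there, 20.0% were called at an FDR under 0.05. Early-exposure con pools of litters 1 to 4 had 116, 111, 118 and 108 CPM of Etv5, and the R2b pools 22.2, 18.5, 11.9 and 32.4 CPM. It fell by 2.42 on the log2 scale (SE 0.25, edgeR FDR 9.98e-04), lower in 4 of 4 litters, where 15.6% of 14979 genes were called. The R2b pool kept 12.1%, 13.2% and 32.1% of its litter's con level in the short exposure and 19.1%, 16.6%, 10.0% and 29.9% in the early exposure. In a pool, fewer cells with a transcript and less of it per cell cannot be told apart. Markers of other cell types moved with the label here too. All 8 blood markers tested were lower in R2b in the short exposure (median log2 difference -1.51, summed level 21.5 to 797 CPM in con and 93.9 to 119.7 CPM in R2b) and all 8 in the early exposure (median -0.97, 9.63 to 1628 and 12.6 to 630 CPM). Endothelium markers were lower for 6 of 7 in the short exposure (median -0.35) and for 8 of 8 in the early exposure (median -0.87, 5.38 to 239.8 CPM in con and 2.77 to 107 CPM in R2b). None of the blood markers passed the test, and 1 endothelium marker did, in the short exposure. The part of these cells in the falls of Etv5 and Spry1 was not tested.

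Spry1 was at 49.4, 42.0 and 38.3 CPM in con and at 13.5, 15.5 and 19.9 CPM in R2b in the short exposure. It fell by 1.39 on the log2 scale (SE 0.16, edgeR FDR 5.68e-04) in 3 of 3 litters. Early-exposure con pools had 33.2, 27.9, 37.1 and 27.7 CPM of Spry1, and the R2b pools 15.1, 11.0, 14.9 and 13.6 CPM. It fell by 1.20 on the log2 scale (SE 0.13, edgeR FDR 0.00136) in 4 of 4 litters. The groups did not overlap for either gene in these exposures, and in each litter the R2b pool kept a larger share of Spry1 than of Etv5, 27.4% to 51.8% for Spry1. With the litter as a block both genes stayed called, while the number of genes called moved to 1775 in the short exposure and to 6086 in the early exposure. Leaving out litter 1 in the short exposure gave 434 genes, leaving out litter 3 there gave 1769, and leaving out litters 1, 2 and 3 in turn in the early exposure gave 322, 460 and 1117.

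Late-exposure readouts followed the transgene reads in litter 1. Litters 1 to 4 had 17.2, 109.9, 109.8 and 114 CPM of Etv5 in their con-labelled libraries, and 107, 24.4, 68.5 and 35.7 CPM in their R2b-labelled ones. The con library of litter 1 was the lowest of all 8 libraries, and the R2b library of litter 1 was close to the other con libraries. For Spry1 the con-labelled libraries had 21.1, 50.5, 42.9 and 45.7 CPM, and the R2b-labelled ones 43.1, 18.4, 31.6 and 21.9 CPM. As labelled, the log2 difference was -0.56 for Etv5 (SE 0.59, edgeR FDR 1.0) and -0.46 for Spry1 (SE 0.31, edgeR FDR 1.0), with 3 of 4 litters lower for each. No gene was called by edgeR's quasi-likelihood test or by DESeq2 (0.00% of 15203 genes), and 175 had an unadjusted p under 0.05 in edgeR. Without litter 1 and with the litter as a block, Etv5 fell by 1.46 (SE 0.25, edgeR FDR 0.0351) and Spry1 by 0.95 (SE 0.17, edgeR FDR 0.0407) on the log2 scale. In that fit 614 of 15195 genes, 4.04%, were called, 2.79% higher and 1.25% lower. Litter 1 was singled out by its Ighg1 counts, and its Etv5 and Spry1 differences had the opposite sign. Its omission therefore favours these falls, and these FDRs are not independent evidence of them. No other fit of this exposure called a gene. Without litter 1 but with no block the differences were -1.35 for Etv5 (edgeR FDR 0.143) and -0.93 for Spry1 (edgeR FDR 0.106), and no gene was called by edgeR (2430 had an unadjusted p under 0.05). Blood markers summed to 164.5 to 658 CPM in the libraries labelled con and 257 to 4943 CPM in those labelled R2b, and their part in these values was not tested.

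**Figure D3:**
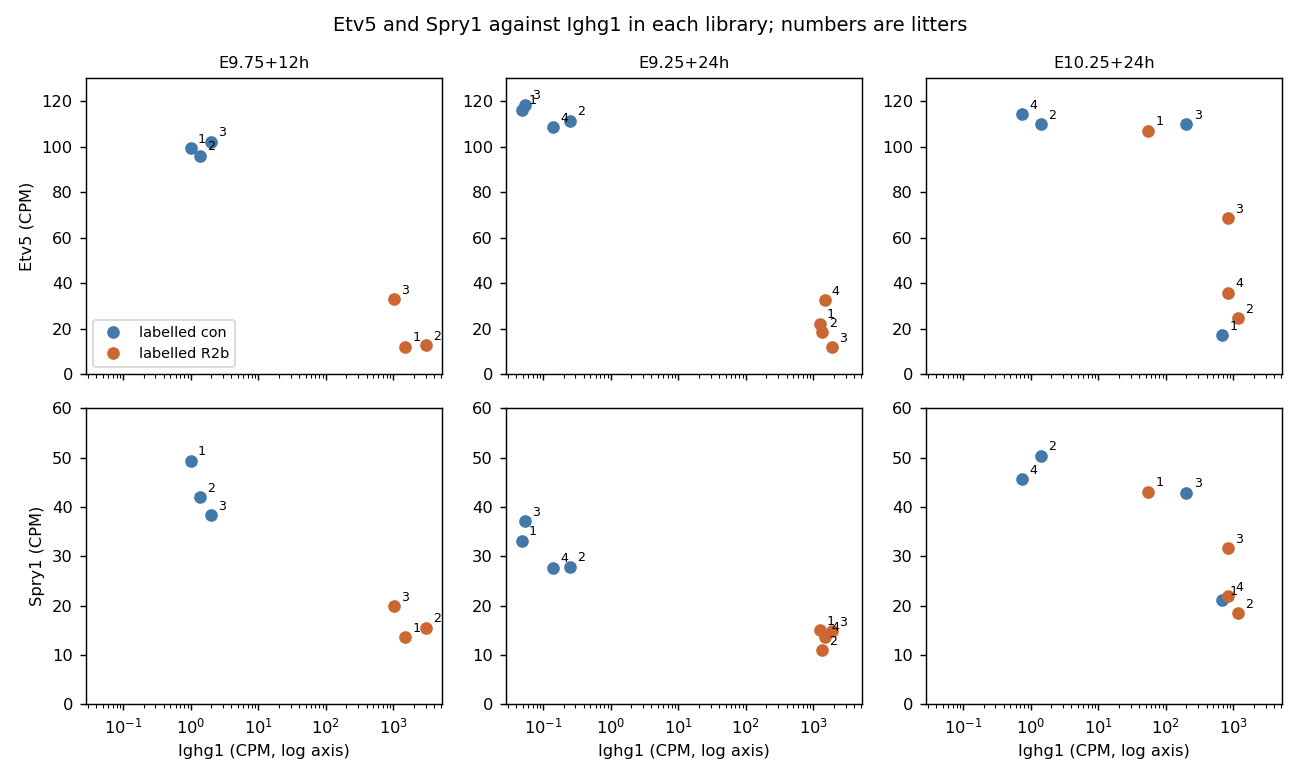
Etv5 (top) and Spry1 (bottom) in CPM on linear axes against Ighg1 in CPM on a log axis, 1 panel per exposure, 1 point per library (blue labelled con, orange labelled R2b), numbered by litter. The late-exposure con point of litter 1 lies with the R2b points, at 17.2 CPM Etv5, while the con point of litter 3, with 201 CPM Ighg1, is at 109.8 CPM Etv5.

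Litter 3 in the late exposure gave a level between the extremes. Its library labelled con had 201 CPM of Ighg1, and its Etv5 of 109.8 CPM was close to the 109.9 and 114 CPM of litters 2 and 4. The library labelled R2b of litter 1, with 54.7 CPM of Ighg1, had 107 CPM of Etv5. The 4 libraries with 679 to 1155 CPM of Ighg1 had 17.2 to 68.5 CPM of Etv5, without an order by Ighg1: the 679 CPM library had the least Etv5. The 8 libraries thus fell into 2 clusters, and no pooled correlation was taken over them.

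Within R2b, a higher Ighg1 level went with a lower Etv5 level, though the relation rested on few libraries. Over the 11 libraries labelled R2b, with each exposure's mean log2 CPM taken off, Pearson's r of Etv5 with Ighg1 was -0.71 (exact permutation within exposures, two-sided p = 0.0142, 0.0284 adjusted over 2 relations). Spearman's rho was -0.66 (exact permutation p = 0.0564, adjusted 0.0564). Without the 2 libraries farthest from the median, litter 1 of the late exposure and litter 2 of the short exposure, r was -0.80 with an exact permutation p of 0.0729 (n = 9). Without litter 1 of the late exposure alone, r was -0.66 (exact permutation p = 0.0868). That library, with 54.7 CPM of Ighg1 and 107 CPM of Etv5, lay near libraries labelled con. The r over all 11 libraries thus does not fully leave out the known con to R2b contrast.

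For Spry1 r was -0.74 (exact permutation p = 0.0567, adjusted 0.0567) and rho -0.67 (exact permutation p = 0.0475, adjusted 0.0564). Without the same 2 libraries r was -0.49 (exact permutation p = 0.264). Without litter 1 of the late exposure alone it was -0.34 (exact permutation p = 0.424), and without litter 2 of the short exposure alone it was -0.76 (exact permutation p = 0.0347), so the relation rested on the former library. Taken as differences from the con library of the litter, r was -0.91 for Etv5 (exact permutation p = 0.0081) and -0.92 for Spry1 (exact permutation p = 0.0226). These differences include litter 1 of the late exposure. There the Ighg1, Etv5 and Spry1 differences had the opposite sign to those of the other litters. No such r was taken without that litter, so these r values do not separate a relation to dose from the con to R2b contrast. Within an exposure the order was not strict. In the early exposure litter 3 had the most Ighg1 (1902 CPM) and the least Etv5 (11.9 CPM), yet litter 4 had the second most Ighg1 (1461 CPM) and the most Etv5 (32.4 CPM). In the short exposure litter 3 had the least Ighg1 (1025 CPM) and the most Etv5 (32.8 CPM) and Spry1 (19.9 CPM).

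A wider set of 14 FGF readouts, in which 12 fell in both the short and the early exposure, holds ETS factors (Etv1, Etv4, Etv5), feedback inhibitors of the Sprouty and Spred families, the phosphatases Dusp4 and Dusp6, the receptor antagonist Il17rd, and Flrt3 and Egr1. None rose in the short exposure, where 9.78% of all genes tested were called lower, and the median log2 difference was -1.35 against 0.01 over all genes. Flrt3 and Egr1 did not pass the test, at 0.36 and 0.67. In the early exposure 6.50% of all genes were called lower, and the median was -1.24 against -0.01. The number called was 8 without litter 2 of the early exposure, where 460 of all 15036 genes were called. It was 7 without litter 1 of the short exposure with the litter as a block, where 267 of all 14878 genes were called. With the litter as a block and all litters, Il17rd was not called in the short exposure (-0.43, edgeR FDR 0.0749), and Egr1 rose in the early exposure (0.84, edgeR FDR 0.0094). Flrt3, which encodes a membrane protein that binds FGF receptors, rose by 0.71 on the log2 scale in the early exposure (SE 0.07, edgeR FDR 7.68e-04). The largest called falls in the early exposure were those of Etv4 (-2.81, SE 0.47, edgeR FDR 0.00752), Etv5 and Spred3 (-2.25, SE 0.14, edgeR FDR 1.28e-04). None of the 14 was called in the late exposure, where their median was -0.35 against 0.0014 over all genes. With the litter as a block and without litter 1, 11 of 14 fell there, where 1.25% of all genes were called lower. That omission favours such falls, since the readouts of litter 1 went against its labels.

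The set also placed litter 1 of the late exposure against its labels. The library labelled con of litter 1 was below the 3 others of its label for 12 of 14 readouts, a position it held for 35.9% of all 15203 genes. The library labelled R2b of litter 1 was above the 3 others of its label for 12 of 14 readouts, against 26.1% of all genes. The library labelled con of litter 3 was below the 3 others for 0 of 14 readouts, against 17.8% of all genes. The summed level of the set for litters 1 to 4 was 515, 958, 939 and 976 CPM under the label con and 913, 566, 741 and 594 CPM under the label R2b. Over the 11 libraries labelled R2b, 12 of the 13 readouts with a mean log2 CPM of at least 1 had a negative r with Ighg1. Of all 12684 genes ranked, 47.4% did. The median r was -0.63 for the readouts against 0.03 over all these genes. Without litter 1 of the late exposure, 11 of 13 were negative, again against 47.4% of all genes, and the median r was -0.53 against 0.04. The readouts were listed with their falls in these data known.

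**Figure D4:**
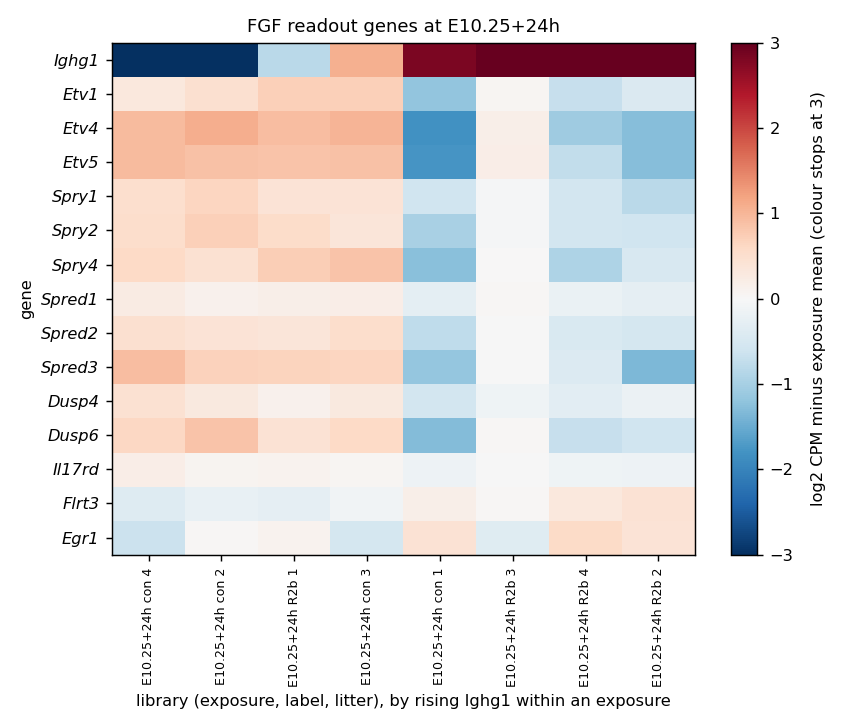
The 14 FGF readouts and Ighg1 in the late exposure, as log2 CPM minus the exposure mean (red above, blue below, colour stops at 3 either way), with the 8 libraries ordered by rising Ighg1. The 4 libraries on the left (con of litters 4, 2 and 3 and R2b of litter 1) are high in most readouts, and con of litter 1 stands among those low in them.

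Of the other 16 genes listed for the pathway, ligands, receptors and their partners, 13 were in the table. Fgf10, a main FGFR2b ligand, had a short-exposure mean of 60.7 ± 3.92 CPM for con and 69.3 ± 12.2 CPM for R2b (SD, n = 3 each) and did not pass the test in any exposure without the litter block. Fgf3, the other otic ligand, rose in the early exposure by 0.94 on the log2 scale (SE 0.23, edgeR FDR 0.0258), and in the short exposure its difference was 0.85 (SE 0.29, edgeR FDR 0.0609). Among receptors, Fgfr4 (0.78, SE 0.21, edgeR FDR 0.0268) and the kinase-less Fgfrl1 (0.46, SE 0.10, edgeR FDR 0.00846) rose in the short exposure, and Fgfr3 rose in the early exposure (0.65, SE 0.17, edgeR FDR 0.0341). Esrp2, a splicing regulator that promotes the IIIb form, rose in the short exposure by 0.54 (SE 0.15, edgeR FDR 0.0284), as did Flrt2 by 0.68 (SE 0.17, edgeR FDR 0.0179). Esrp1, which has the same role, was at -0.25 (SE 0.09, edgeR FDR 0.0693). In all 4 of the list rose in the short exposure and 2 in the early exposure, where 10.20% and 9.09% of all genes were called higher, and none fell. The median difference of the tested members was 0.49 and 0.26. None was called in the late exposure, where the median was 0.04. The litter block changed several of these calls. With it only Fgfrl1 rose in the short exposure, where Fgfr4, Esrp2 and Flrt2 had edgeR FDRs of 0.0684, 0.0608 and 0.0567. Of all 14882 genes tested in that fit, 862 were called higher. In the early exposure 6 of 12 then rose, Fgf10 (0.22, edgeR FDR 0.0161), Fgfrl1, Esrp2 and Flrt2 beside Fgf3 and Fgfr3, and Esrp1 fell by 0.12 on the log2 scale (edgeR FDR 0.0306). The block also raised the calls over all genes there, to 3071 higher and 3015 lower of 14979 tested.

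Apart from Fgfr2, whose r with Ighg1 over the 22 exposure-centred libraries was 0.98, the gene most like Ighg1 was Man1a (r = 0.97), a Golgi mannosidase that trims N-glycans. Chst2, a sulfotransferase (0.95), Myl9, a myosin light chain (0.95), Lamb1, a laminin chain (0.95), and S100a1, a calcium-binding protein (0.94), came next of 12684 genes ranked. The lowest r belonged to Tiam1, a Rac exchange factor (-0.93), the homeobox gene Otx1 (-0.93), the LIM-only gene Lmo4 (-0.93), the glycine decarboxylase gene Gldc (-0.93) and Gucy1a1, a guanylate cyclase subunit (-0.92). These libraries share the con to R2b contrast, and such r values are a description. Over the libraries labelled R2b without litter 1 of the late exposure (n = 10), r was 0.70 for Man1a, 0.67 for Chst2 and 0.70 for S100a1, but 0.14 for Myl9 and -0.04 for Lamb1. On the low side it was -0.62 for Otx1, -0.39 for Lmo4 and -0.34 for Gldc, but -0.03 for Tiam1 and -0.14 for Gucy1a1. Fgfr2 stood at 0.96 there.

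Man1a was at 13.3, 7.46 and 13.0 CPM in con and at 84.1, 170.1 and 75.4 CPM in R2b of litters 1 to 3 in the short exposure. In the early exposure con of litters 1 to 4 had 11.6, 12.7, 9.26 and 15.9 CPM of Man1a, and R2b had 107, 119, 97.7 and 116 CPM. The R2b library of litter 3 there had the most Ighg1 and the least Man1a. Litters 1 to 4 of the late exposure had 255, 20.1, 67.9 and 22.6 CPM under the label con and 60.5, 182, 200.5 and 219.6 CPM under the label R2b. As with Ighg1, the library labelled con of litter 1 was high, that of litter 3 lay between, and the library labelled R2b of litter 1 was low. The order was not that of Ighg1, since the library labelled con of litter 1, with 679 CPM of Ighg1, had more Man1a than the library labelled R2b of litter 2, with 1155 CPM.

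**Figure D5:**
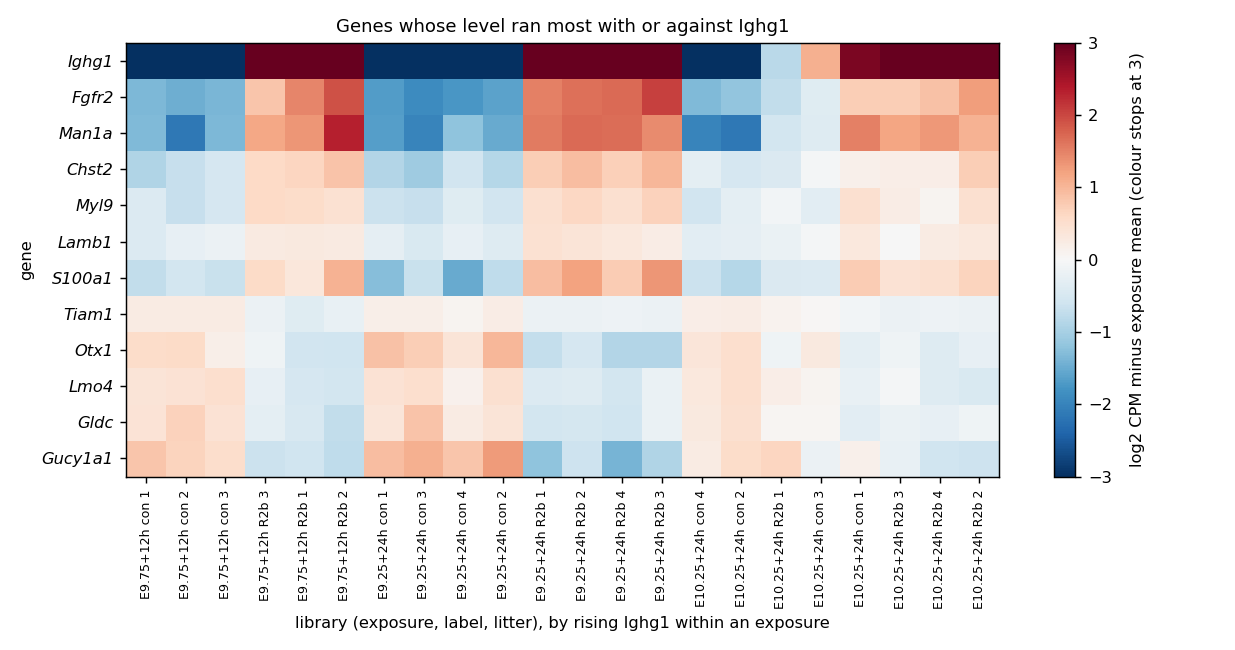
Ighg1, Fgfr2 and the 5 genes at each end of the ranking by r with Ighg1, as log2 CPM minus the exposure mean (red above, blue below, colour stops at 3 either way), with the libraries of each exposure ordered by rising Ighg1. Man1a is high in the libraries with much Ighg1 (r = 0.97 over the 22 libraries, which share the con to R2b contrast), without a strict order among them.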

How the data were processed

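Stranded, poly(A)-selected RNA-seq libraries were made from otocyst pools, per the labels' protocols. The authors deposited raw read counts per Ensembl gene as whole numbers. The submitters' processing notes name Novoalign 2.08.03 and the build mm10, with no role or order. The name of the deposited count table carries the abbreviation DRDS, which is not spelled out there, and the annotation and gene filter are not given in the sources used here. Symbols (15522 of 15736 genes), positions and sequences came from GENCODE M21 on GRCm38.

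Columns were joined to samples by sample title. Of 24 samples 22 had a column, and 2 columns that match no title were not used. The members and gene lists (FGF readout, FGFR2b ligands and receptors, B cell and immunoglobulin, blood, mesenchyme, endothelium, hindbrain neural tube, otic epithelium) were chosen with earlier results of these data known. Genes named are the members, Etv5, Spry1, list genes, and the 5 at each end of the ranking by r with Ighg1, with a mean log2 CPM of 1 or more.

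Each exposure was fitted alone in edgeR 4.0.16 (R 4.3.3; filterByExpr, TMM, 2 group means, quasi-likelihood test, Benjamini-Hochberg FDR under 0.05), a procedure tested on simulated data. Log2 CPM used a prior count of 2. Correlations used exact permutation within exposures in SciPy 1.17.1. The planned correlation over all 8 libraries of the late exposure was not run, since they fell into 2 clusters. A pool from each litter entered both labels, and the litter code in the titles gives the pairing. Deviations from group means correlated between same-litter pools at -0.18, -0.29 and -0.26 in the short exposure, 0.52, 0.61, 0.83 and 0.81 in the early exposure, and -0.19, 0.39, 0.35 and 0.26 in the late exposure. Alternatives were median-of-ratios scaling, no filter, the litter block, DESeq2 1.42.0 and leaving out each litter, and for correlations also other scalings, prior count and dose gene.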

Additional observations from a re-analysis of the deposited data

Results flagged for a closer look

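Etv5 and Spry1 were examined in 8 sets of 4 libraries for a library that stood apart from the others, which chance alone gives in about 1 in 20 sets. In 1 of them it did: Etv5 was at 17.2 CPM in the library labelled con of litter 1 in the late exposure, against 109.8 to 114.3 CPM in the other 3 libraries of that label.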

How the results depend on the processing

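Of 185 recomputed values, 152 were counted as unchanged, by a rule that differed with the kind of value. Log2 differences and correlations had to keep their direction and their side of the threshold, and ratios to stay within the replicate spread. Counts of genes called had only to stay near the count of the main fit, and 0 against 0 in the late exposure was included. The falls of Etv5 and Spry1 in the short and early exposures stayed called under every alternative run, from -2.97 to -2.11 and -2.73 to -2.19 for Etv5, and from -1.64 to -1.16 and -1.26 to -1.14 for Spry1. With the litter as a replicate block the genes called numbered 1775 of 14882 in the short exposure and 6086 of 14979 in the early exposure. Without each litter in turn they numbered 434 to 4065 and 322 to 2127. Block and left-out litter together gave 267, 3151 and 1595 genes without litters 1, 2 and 3 of the short exposure, 4715, 4450, 4602 and 6161 without litters 1 to 4 of the early one, and 0 to 614 in the late one. There the block without litter 1 gave Etv5 -1.46 and Spry1 -0.95, with ranges of -1.46 to -0.05 and -0.95 to -0.16. Leaving out a litter of a 3-litter exposure under the block leaves few residual degrees of freedom. With the block and all litters no call of Etv5 or Spry1 changed in any exposure, FGF readouts called numbered 11 in the short exposure and 14 in the early one, and of the ligand and receptor list 1 gene rose in place of 4 in the short exposure, and 6 rose and 1 fell in place of 2 that rose in the early one. FGF readouts called numbered 7 to 13 without single litters of the short exposure, 8 to 14 for the early one and 0 to 11 for the late one.

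In the late exposure the Fgfr2 reads per Ighg1 read were -1.995 against the con library of the litter (replicate block), and -0.80 to 0.79 without single litters, above 0 only without litter 1, which takes out both the R2b library at -2.14 and a con library with many Ighg1 reads. The r of Etv5 with Ighg1 was -0.66 (exact permutation p = 0.0547) with linear Ighg1 CPM and -0.82 to -0.64 without single libraries. It no longer passed without litter 3 of the early exposure or litter 1, 2 or 4 of the late one. The r of Spry1 passed with library totals (-0.78, exact permutation p = 0.033), with Fgfr2 in place of Ighg1 (-0.79, exact permutation p = 0.0307) and as litter differences with the replicate block (-0.92, exact permutation p = 0.0226). Each of these settings includes litter 1 of the late exposure and was not rerun without it. Without single libraries the r of Spry1 was -0.85 to -0.34, with -0.34 when that litter's R2b library was left out. The cause of these changes was not tested. The planned correlations over all libraries of the late exposure, and their alternatives, were not run.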
